A study of Mus musculus with 6 samples.

Results

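Arteries and veins are lined by endothelial cells (EC) of different identity, and 7 genes that are widely used to tell them apart were followed here from the growing to the resting lung vasculature. Gja4, Gja5, Sox17, Bmx and Efnb2 stand for the arterial side and Nr2f2 and Ephb4 for the venous side. The 7 genes were picked by symbol from 12623 genes of an RNA-seq table, where they hold 9 of 17241 transcript rows. Earlier results of these data were known when the 7 were chosen. Nr2f2 and Ephb4 have 2 rows each, and the row with the higher mean was used.

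The study compared lung EC of infant mice with those of young adult mice to find what changes as EC acquire quiescence, the resting state in which they no longer divide or sprout. Both groups were untreated C57BL/6N mice without a transgene, infants in the second postnatal week and young adults in about the third month of life, with 3 independent libraries per group. Live EC were sorted from digested lungs by the presence of CD31 and CD34 and the absence of PTPRC, LYVE1, LY76 and PDPN. Values are the authors' RPKM, reads scaled to transcript length and to the mapped reads of the library, which allow levels to be compared between genes. The study gives an average coverage over its libraries, but the read depth of each library is unknown, so no counting error could be attached to a single value.

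The identity of an EC is set early in development and is carried by signals and transcription factors. On the arterial side, NOTCH signalling and SOXF factors such as SOX17 maintain a program that includes ephrin-B2 and the connexins of gap junctions. On the venous side the nuclear receptor COUP-TFII, encoded by Nr2f2, holds NOTCH signalling down, and EPHB4 is the receptor for ephrin-B2 across the boundary. Most EC of the lung belong to capillaries, in which both programs are weaker or mixed, so a bulk sample of lung EC averages over arteries, veins and capillaries.

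The motifs read by these arterial regulators were looked for in the 250 bases before the transcription start of each member, in RefSeq sequences of GRCm38.p6. A promoter entry was found for 6 of the 7 genes (none for Sox17), and in 4 of the 6 the start is also that of a GENCODE transcript. The letters ACAAT, the core bound by SOX factors, or ATTGT on the other strand, occurred in 2 of 6 members, Gja4 and Bmx, against 27.7% of 32851 promoters. The letters TGGGAA or TTCCCA, the core bound by the NOTCH effector RBPJ, occurred in 1 of 6, Bmx, against 21.6% of promoters. All windows that hold a match are printed 5′ to 3′ on the coding strand, here the minus strand, with the match in capitals, so that the letters behind these counts can be seen. The Gja4 match lies 86 bases before the transcription start, and the Bmx matches lie 32, 52 and 178 bases before it.
Gja4 SOX core, chr4:127314109-127314137: aaccaaagaagcACAATctgggcgggtcc
Bmx SOX core, chrX:164258209-164258237: aggccctgcaggACAATaaatgctttggg
Bmx SOX core, chrX:164258229-164258257: gtttcctgtgggATTGTgtaaggccctgc
Bmx RBPJ core, chrX:164258354-164258383: ccaagagctgccTGGGAAaagcaggagccg
A match to these letters describes the sequence and says nothing of binding in these cells. The printed SOX windows of Bmx overlap each other, and sequence outside the 250 bases was not read.

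Of the 7 genes, 2 were called lower in young adult EC, 1 arterial (Gja5) and 1 venous (Nr2f2), and none was called higher. The call required an adjusted p under 0.05 in limma's moderated test on log2(RPKM + 1) and a change of over 0.81 on that log2 scale, the fold threshold of the study. Over all 12458 genes tested, 11.4% were called, 3.33% higher and 8.1% lower. By adjusted p alone 4 of the 7 passed, with Bmx lower and Ephb4 higher beside the called pair, against 25.5% of all genes (9.26% higher and 16.2% lower). The libraries of both ages did not overlap for the same 4 genes, against 43.4% of all genes. By adjusted p, 2 of the 5 arterial members fell and 3 did not pass, and the venous members moved in opposite directions. In these bulk samples a smaller share of arterial or venous EC and less RNA of a gene per cell cannot be told apart.

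**Figure D1:**
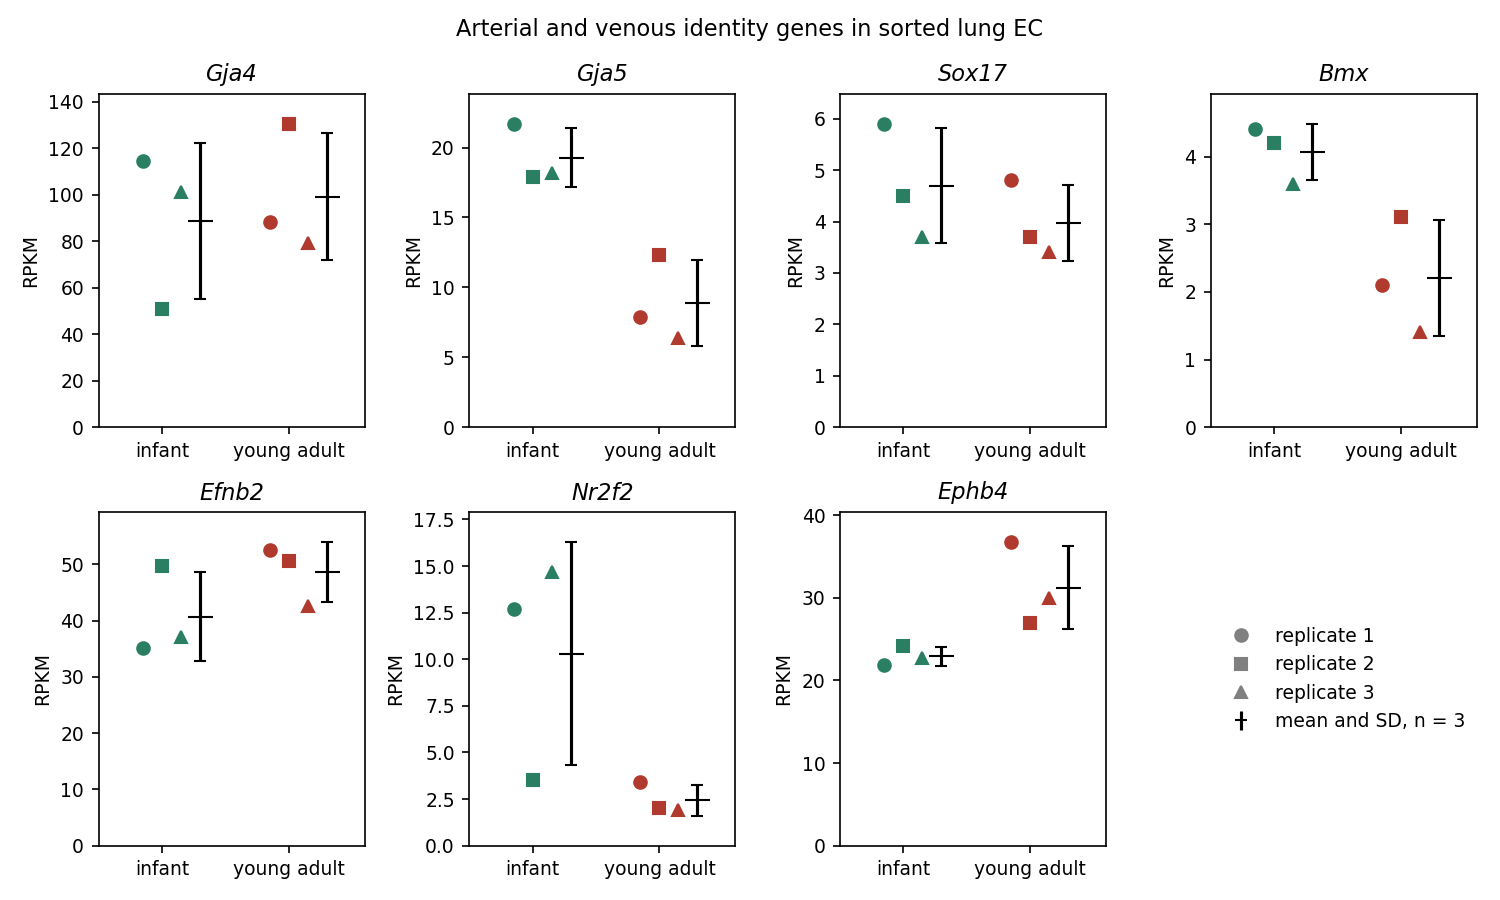
RPKM of the 7 genes in each library, 1 point per library, with the mean and SD of each age (n = 3). Gja5, Bmx and Nr2f2 were lower in all young adult libraries than in any infant library, Ephb4 was higher in all of them, and Gja4, Sox17 and Efnb2 overlapped.

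The sorted libraries of both ages carried different levels of transcripts that mark other cells. Summed RPKM of 13 fibroblast markers, led by Col3a1 and Col1a1, was 381.5 to 1372.1 in infant and 14.4 to 29.3 in young adult libraries, with 12 called lower. The sum of 14 mural cell markers, led by Acta2 and Tagln, was 124.3 to 320.8 against 18.7 to 26.8, with 13 called lower. No marker of these lists was at 0 in all young adult libraries. All 7 erythroid markers, led by Hba-a1 and Hba-a2, were called lower (9655.9 to 79864.4 against 822.2 to 1350.7), as were 4 of 7 cardiomyocyte markers, led by Myl7 and Myl4. Sums of epithelial markers, led by Sftpc and Scgb1a1, overlapped (6521.7 to 11404.2 against 1847 to 8421.5, 4 of 11 called lower and 1 higher), and so did those of leukocyte markers, led by Lyz2 and Cd68 (300.8 to 495.6 against 137.7 to 534, 4 of 10 called lower). The 16 endothelial markers, led by Egfl7 and Esam, were found in all 6 libraries. They summed to 3774.1 to 5508.2 against 5830.4 to 6401.2, with 2 called higher. The epithelial sum was above the endothelial one in all infant libraries and in young adult replicate 3. The erythroid sum was above the endothelial one in all infant libraries. The percentage of globin transcripts ran from 3.41 in infant replicate 2 to 23.5 in infant replicate 3. In young adult libraries it was 0.307 to 0.487. Sums of different lists do not give shares of cells. Capillary markers, led by Car4 and Tmem100, summed to 2628.7 to 4587.3 against 4808.1 to 4898.8, with 4 of 12 called higher. For the counts of this paragraph, 3.33% of all genes were called higher and 8.1% lower. Not all calls of these markers were kept when 1 library was left out. Of the lymphatic markers, led by Lyve1 and Flt4, 1 of 5 tested was called higher, Lyve1, at 68.6 to 171.4 against 252.9 to 396.4 RPKM, although cells with LYVE1 protein had been sorted out, while the other 4 had lower values in young adult EC and the list's median log2 fold change was -0.30. Infant replicate 2 stood apart on the first principal component (79.7% of the variance), at -12.4, where the other infant libraries stood at -48.8 and -48.3 and the young adult ones at 33.3 to 41.7. The study's methods name female mice, but the Y-linked Ddx3y measured 16.5 to 21.9 RPKM in the infant libraries and was listed at 0 in the young adult ones, and Xist measured 7.6 to 8.7 against 12.5 to 15.6 RPKM. For every member, the sex makeup of the libraries and age cannot be told apart.

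Ephrin-B2 and its receptor are the classical pair of arterial and venous surface proteins, a transmembrane ligand and a receptor tyrosine kinase that signal into both cells on contact. Efnb2 (chr8:8617235-8661242, whole gene in GRCm38.p6 as for all members) was at 35.2, 49.7 and 37.1 RPKM in infant EC, given here and below in the order of replicates 1 to 3, against 52.6, 50.6 and 42.6 RPKM in young adult EC. Infant replicate 2 lay within the young adult range, so the ages overlapped. The means were 40.7 ± 7.88 and 48.6 ± 5.29 (SD, n = 3), a log2 fold change of 0.26 ± 0.15 (SE, 95% interval -0.09 to 0.62, adjusted p = 0.235 in limma's test). Without infant replicate 2 the log2 fold change was 0.41 (adjusted p = 0.0308), which is still under the fold threshold. Scaling by endothelial markers or without globin transcripts gave 0.09 (adjusted p = 0.717) and 0.07 (adjusted p = 0.745). Relative to the median of all genes these were 0.31 and 0.30, against 0.33 in the values as deposited.

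Ephb4 (chr5:137350109-137374522) was nearly level among infant libraries, at 21.9, 24.1 and 22.7 RPKM, and stood at 36.7, 27.0 and 30 RPKM in young adult EC. Every young adult library was above every infant library, with young adult replicate 1 farthest. The means of 22.9 ± 1.11 and 31.2 ± 4.97 gave a log2 fold change of 0.42 ± 0.12 (95% interval 0.13 to 0.71, adjusted p = 0.0431), a rise of 1.36-fold in the mean RPKM that was under the fold threshold. The second transcript row of Ephb4 gave nearly the same values, 21.8, 24.0 and 22.7 against 36.5, 26.9 and 29.9 RPKM. This rise was a small one, and its adjusted p was over 0.05 when any library other than infant replicate 2 was left out. In limma's test the adjusted p was also 0.0658 with quantile normalization, 0.0534 without the intensity trend and 0.0822 with a replicate block. Scaling the libraries by endothelial markers or without globin transcripts shifted the median of all genes by -0.15 and -0.16, and Ephb4 then stood at 0.25 (adjusted p = 0.36) and 0.23 (adjusted p = 0.27), or at 0.47 relative to the median in both.

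The ratio of the ligand to its receptor is read within a library and does not depend on its scaling. Efnb2 exceeded Ephb4 in all 6 libraries, with log2 ratios of 0.68, 1.04 and 0.71 in infant and 0.52, 0.91 and 0.51 in young adult libraries. The ages overlapped, since the ratio of young adult replicate 2 lay above those of infant replicates 1 and 3. The means of 0.81 ± 0.20 and 0.64 ± 0.23 differed by -0.17 (exact permutation p = 0.5, two-sided, adjusted over 3 ratios 0.5).

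Of the 22 ephrins and Eph receptors, both members included, 11 were in the table and tested, 5 with higher and 6 with lower values in young adult EC. Their median log2 fold change was -0.43, against -0.07 over all genes, but 0.01 after quantile normalization and 0.33 over the 7 of them with a mean RPKM of at least 1. Among them 1 was called, in the lower direction, against 8.1% of all genes called lower. It was Epha3, a receptor of type A ephrins, which fell from 3.2, 0.8 and 2.8 RPKM to 0.1, 0.1 and 0.0 RPKM (log2 fold change -1.52, adjusted p = 0.013). That call was lost without young adult replicate 1 or 2. Among infant libraries Epha3 and the fibroblast sum were both lowest in replicate 2. The part of fibroblasts in the fall of Epha3 was not tested. Efna1, a type A ephrin of endothelium, had the highest level of the family at 130.9 ± 16.8 and 167.8 ± 18.3 RPKM (log2 fold change 0.36, adjusted p = 0.099). Efnb1, the relative of Efnb2, passed the adjusted p but not the fold threshold, at 12.2, 16.2 and 10.3 against 18.8, 19.9 and 19.4 RPKM (0.57, adjusted p = 0.03).

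Connexins join neighbouring EC through gap junctions, and connexins 37 and 40, encoded by Gja4 and Gja5, are the pair found in arterial endothelium. Of these 2, Gja5 was called lower and Gja4 did not pass the test. Gja4 (chr4:127311420-127314039), whose SOX window is printed above, had the highest level of the 7, at 114.4, 50.7 and 101.3 RPKM in infant EC against 88.1, 130.5 and 79.1 RPKM in young adult EC. The lowest value was that of infant replicate 2 and the highest that of young adult replicate 2, and in the other 4 libraries both infant values lay above both young adult ones. The means were 88.8 ± 33.6 and 99.2 ± 27.4, with a log2 fold change of 0.21 ± 0.32 (95% interval -0.53 to 0.94, adjusted p = 0.661). The sign turned to -0.15 without infant replicate 2 and to -0.01 without young adult replicate 2, so no direction can be given for Gja4.

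Gja5 (chr3:97032402-97053634) fell from 21.7, 17.9 and 18.2 RPKM in infant EC to 7.9, 12.3 and 6.4 RPKM in young adult EC. The lowest infant value was 17.9 and the highest young adult value 12.3, so all young adult libraries lay below all infant ones. The mean was 2.17-fold lower, 19.3 ± 2.11 against 8.87 ± 3.07, with a log2 fold change of -1.08 ± 0.21 (95% interval -1.56 to -0.60, adjusted p = 0.0112). This gene was called lower under each of the 4 other scalings and in 5 of 6 fits that left out a library. It missed the threshold without young adult replicate 1, where the log2 fold change was -1.03 and the adjusted p 0.0513. Infant replicate 2, which had the lowest fibroblast and mural sums of its age, measured 17.9 RPKM, and without it the log2 fold change was -1.13 (adjusted p = 0.00781). Cardiomyocytes of the atria and of the pulmonary veins also make connexin 40, and the cardiomyocyte sum was 61.8, 82.5 and 111.7 in infant and 25.6, 48.8 and 21.5 in young adult libraries. Among the young adult libraries Gja5 and this sum were both highest in replicate 2 and lowest in replicate 3, whereas among the infant libraries Gja5 was highest in replicate 1, where the sum was lowest. Neither overlapped between the ages. The part of these cells in the result was not tested.

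Within a library, the log2 ratio of Gja4 to Gja5 was 2.40, 1.5 and 2.48 in infant and 3.48, 3.41 and 3.63 in young adult libraries, with no overlap. The difference of the means, 2.13 ± 0.54 and 3.50 ± 0.11, was 1.38, and the exact permutation p of 0.1 is the smallest that 3 against 3 libraries allow (adjusted over 3 ratios 0.3). Leaving out 1 library at a time gave differences of 1.07 to 1.55. The makeup of connexin transcripts was computed over the 4 connexins of the list that were measured. Gja4 took 63.2, 50.3 and 64.5% of their summed RPKM in infant and 79.2, 83.2 and 79.9% in young adult libraries, while Gja5 took 13.8% ± 3.46 and 7.14% ± 0.691. Gja1, encoding connexin 43, which EC share with mural cells and fibroblasts, took 20.4% ± 2.71 and 5.96% ± 0.978. These shares were not tested.

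Of 13 relatives of the members, 8 were tested, and their median log2 fold change was -0.41, against -0.07 over all genes, but -0.14 after quantile normalization, -0.13 over the 5 whose mean RPKM reached 1 and -0.28 without infant replicate 3. In all, 2 were called lower, Gja1 and Btk, against 8.1% of all genes called lower. Gja1 had the largest change, falling from 35.8, 23.5 and 28.3 RPKM to 7.1, 7.6 and 6.6 RPKM (log2 fold change -1.88, called in all 6 fits that left out a library). Among infant libraries Gja1 and the fibroblast sum were both lowest in replicate 2, at 23.5 RPKM and 381.5. The part of fibroblasts in the result was not tested. Gjc1, encoding connexin 45, took 6.50% ± 1.83 and 6.14% ± 1.79 of the connexin sum.

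**Figure D2:**
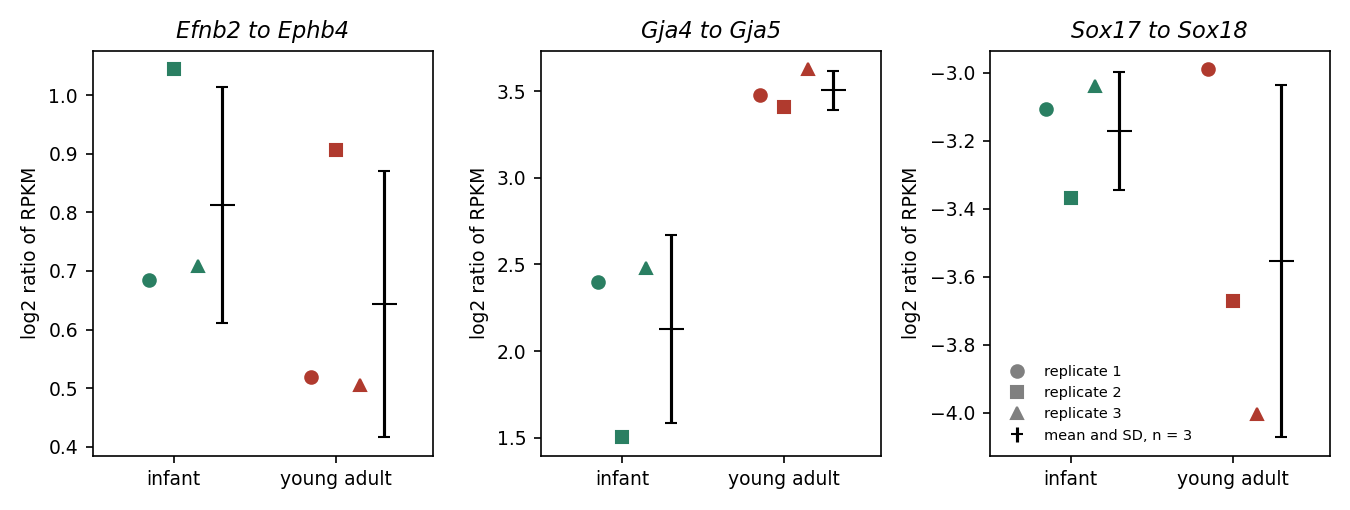
Log2 ratios of RPKM within each library for Efnb2 to Ephb4, Gja4 to Gja5 and Sox17 to Sox18, 1 point per library with the mean and SD (n = 3), on axes that do not start at 0. Of the 3 ratios, Gja4 to Gja5 separated the ages, at 1.5 to 2.48 in infant and 3.41 to 3.63 in young adult libraries.

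SOX17 is a SOXF factor that acts with SOX7 and SOX18 in vessel formation and upstream of NOTCH on the arterial side. Sox17 (chr1:4490928-4497426) was at 5.9, 4.5 and 3.7 RPKM in infant EC against 4.8, 3.7 and 3.4 RPKM in young adult EC. The ages overlapped and infant replicate 3 equalled young adult replicate 2. The log2 fold change was -0.19 ± 0.17 (95% interval -0.58 to 0.20, adjusted p = 0.434). Its relatives were more abundant, Sox18 at 42.6 ± 10.8 and 46.6 ± 8.26 RPKM (log2 fold change 0.15, adjusted p = 0.639) and Sox7 at 25.0 ± 2.89 and 30.5 ± 3.19 RPKM (0.27, adjusted p = 0.129). The log2 ratio of Sox17 to Sox18 was -3.11, -3.37 and -3.04 in infant and -2.99, -3.67 and -4.01 in young adult libraries, overlapping through young adult replicate 1 (difference -0.38, exact permutation p = 0.4, adjusted 0.5).

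Nr2f2 (chr7:70351946-70366746), the venous nuclear receptor, showed the largest difference of the 7 genes and the least even one. Infant EC had 12.7, 3.5 and 14.7 RPKM and young adult EC 3.4, 2.0 and 1.9 RPKM. The groups were separate only by 0.1 RPKM, the rounding step of the table, between infant replicate 2 and young adult replicate 1. The second transcript row gave 12, 3.3 and 14.1 against 3.3, 1.9 and 1.8 RPKM, in which those libraries were equal. The mean was 4.23-fold lower, 10.3 ± 5.97 against 2.43 ± 0.839, with a log2 fold change of -1.55 ± 0.44 (95% interval -2.58 to -0.53, adjusted p = 0.0388).

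The call of Nr2f2 was lost in 5 of 6 fits that left out a library, with adjusted p of 0.0760 to 0.127, and was kept without infant replicate 2, where the log2 fold change was -2.12 (adjusted p = 0.000149). It was also lost with quantile normalization (adjusted p = 0.055), with a pseudocount of 5 (0.051) and with robust eBayes (0.073). COUP-TFII is not restricted to venous EC and is made by fibroblasts and mural cells as well. The fibroblast sum was 1372.1, 381.5 and 1000.4 and the mural sum 283.7, 124.3 and 320.8 in infant replicates 1 to 3, lowest in replicate 2 as Nr2f2 was. In that library the fibroblast sum was 381.5, against 29.3 at most in young adult libraries, and Nr2f2 differed by 0.1 RPKM from young adult replicate 1. Single fibroblast markers differed in pattern, with Pdgfra at 87.2, 2.6 and 66.8 RPKM and Dcn at 7.6, 19.9 and 8.0 RPKM in infant replicates 1 to 3. The part of fibroblasts and mural cells in the result was not tested. Nr2f1, the closest relative, measured 1.13 ± 0.473 and 0.367 ± 0.0577 RPKM (log2 fold change -0.62, adjusted p = 0.051).

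**Figure D3:**
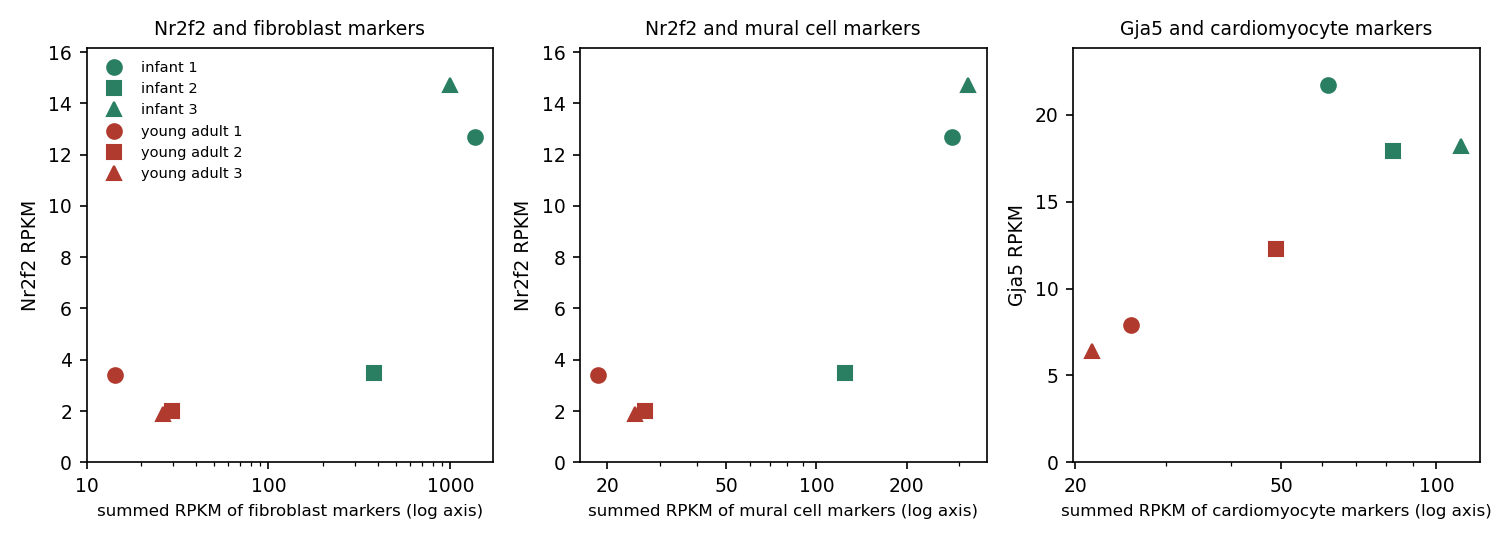
RPKM of Nr2f2 against the summed RPKM of fibroblast markers (left) and mural cell markers (middle), and of Gja5 against that of cardiomyocyte markers (right), 1 point per library, with log scales on the horizontal axes only and infant libraries in green and young adult ones in red. Infant replicate 2 and young adult replicate 1 have 3.5 and 3.4 RPKM of Nr2f2, with fibroblast sums of 381.5 and 14.4. For Gja5 all infant libraries are higher on both axes than all young adult ones. The part of these other cells in either gene was not tested.

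BMX is a non-receptor tyrosine kinase of the TEC family, found in the endothelium of large arteries and in the endocardium. Bmx (chrX:164192842-164258193) has the promoter with most motif matches of those printed above, and its levels were among the lowest, at 4.4, 4.2 and 3.6 RPKM in infant EC against 2.1, 3.1 and 1.4 RPKM in young adult EC. All young adult libraries were below all infant libraries, with 0.5 RPKM between the nearest. The mean was 1.85-fold lower, 4.07 ± 0.416 against 2.20 ± 0.854, and the log2 fold change of -0.69 ± 0.19 (95% interval -1.14 to -0.25) had an adjusted p of 0.0358. On the log2(RPKM + 1) scale, which understates changes of low genes, this fall was under the fold threshold. With a pseudocount of 0.1 the log2 fold change was -0.92 and Bmx was called, as it was without young adult replicate 2 (-0.89). In 4 of the 6 fits that left out a library its adjusted p was over 0.05, at 0.112 and 0.0674 when infant replicates 1 and 3 were dropped and 0.102 and 0.0803 when young adult replicates 1 and 3 were. Scaling by endothelial markers or without globin transcripts also gave a call (-0.82 and -0.84), but relative to the median of all genes Bmx stood at -0.61 in both, against -0.62 in the values as deposited. With quantile normalization the adjusted p was 0.116. Bmx is the 1 X-linked gene of the 7. Of the TEC relatives, Btk, a kinase of B cells and myeloid cells, was called lower at 1.2, 1.0 and 2.1 against 0.2, 0.4 and 0.2 RPKM (-0.92), with 4 of 6 fits without a library keeping the call.

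**Figure D4:**
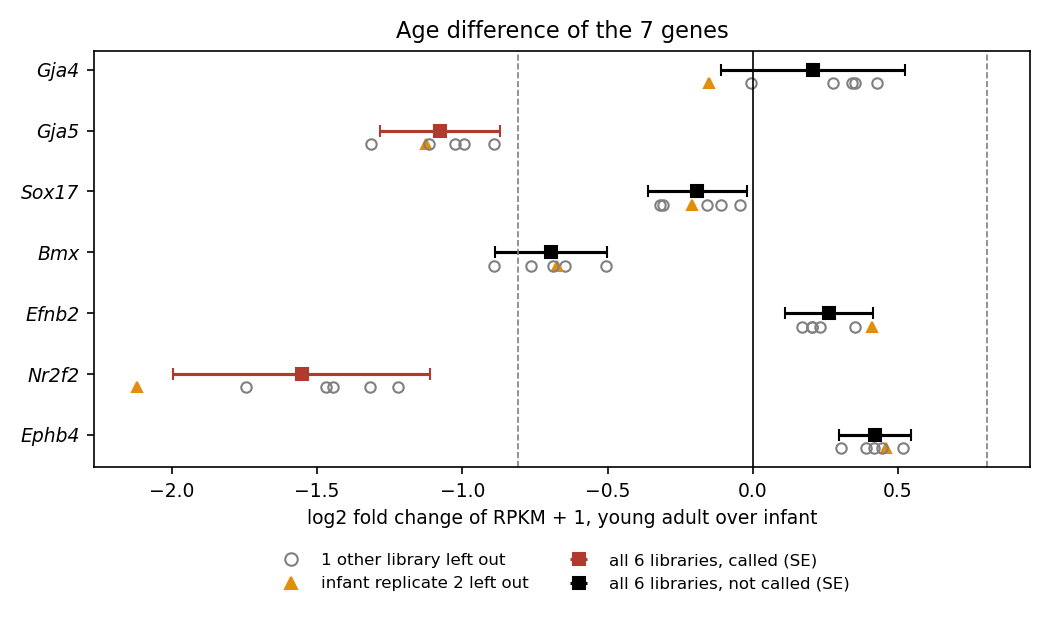
Log2 fold changes of RPKM + 1 (young adult over infant) of the 7 genes, as squares with SE from all 6 libraries (red where called) and as smaller marks when 1 library was left out (triangles without infant replicate 2). Gja5 and Nr2f2 lie beyond the dashed threshold of 0.81, all values of Bmx are below 0 and all of Ephb4 above it, and the values of Gja4 lie on both sides.

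The order of the levels was much the same at both ages. Percentiles are given here among all genes with a value above 0 in the same library. Gja4 was highest of the 7 in all 6 libraries, at percentiles 91.9 to 97.6, and Efnb2 came next at 88.6 to 92.2. Ephb4 stood at 81.1 to 88.2. Gja4 and Efnb2 came within 1 RPKM of each other in infant replicate 2, so their order rests on the other libraries. Gja5 stood at percentiles 76.8 to 81.0 in infant and 51.5 to 68.9 in young adult EC, and Ephb4 lay above it in all 6. Nr2f2, Sox17 and Bmx formed the lowest level, where the spread within groups covered the distances between neighbours, apart from Nr2f2 in infant replicates 1 and 3.

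Within the young adult group all 5 arterial members were lowest in replicate 3, whereas 20.7% of all genes were, and Gja4, Gja5 and Bmx were highest in replicate 2, whereas 24.5% of all genes were. Both venous members were highest in replicate 1, as were 24% of all genes. Of the other genes, 10 of 18 arterial and 11 of 15 venous ones were also lowest in replicate 3, and 10 of 15 other venous genes were highest in replicate 1. In infant libraries 4 of the 5 arterial members were highest in replicate 1, against 30.3% of all genes. These counts describe 6 libraries and were not tested.

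The genes with the most similar pattern over the 6 libraries were different ones for each member. The measure was Pearson's r of log2(RPKM + 1) among 6983 other genes whose mean RPKM reached 5 (6984 for Sox17 and Bmx), over points that share library and age. For Gja5 these were Phf21a (0.995) and Zfp57 (0.982), for Bmx Foxn3 (0.997) and Matr3 (0.984), and Gja5 and Bmx had an r of 0.978 with each other. Nr2f2 was most like Prkacb (0.995) and Fhl1 (0.994), and 425 genes had an r over 0.9 with it. Ephb4 was nearest to Pvr (0.994) and 2010111I01Rik (0.990), and Efnb2 to Enox2 (0.999) and Ip6k1 (0.992). Gja4 and Sox17 had few close partners, 23 and 16 genes over 0.9, led by Rrm1 (0.968) and Snapc4 (0.967) for Gja4 and by Bptf (0.968) and Rictor (0.966) for Sox17.

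To set the 7 genes beside the programs they belong to, other genes known from arterial and venous EC were counted in the same fit. Both lists were chosen with earlier results of these data known, so their counts are descriptive. Of 19 other arterial genes, 18 were tested, 11 with higher and 7 with lower values in young adult EC. Their median log2 fold change was 0.13, against -0.07 over all genes, or 0.20 relative to them. Under scaling by endothelial markers and without globin transcripts it was -0.04 and -0.06, still 0.18 and 0.17 relative to all genes, but after quantile normalization it was 0.03, or -0.01 relative to them. Of these genes 3 were called higher and 2 lower, each also in all 6 fits without a library. Over all genes 3.33% were called higher and 8.1% lower. The 3 that rose encode secreted signals. Edn1, endothelin 1, rose from 14.3, 18.6 and 13.3 to 41.2, 55.1 and 42.2 RPKM (log2 fold change 1.53). Vegfc, a lymphangiogenic growth factor, rose from 2.4, 2.8 and 2.6 to 9.9, 7.1 and 6.6 RPKM (1.28). Sema3g, an arterial semaphorin, rose from 10.6, 10.2 and 8.5 to 21.5, 30.2 and 18.4 RPKM (1.15), a gene that the study itself picked from these libraries. None of the 3 overlapped between the ages, as was so for 43.4% of all genes.

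Cxcr4, the receptor of CXCL12 on sprouting and arterial EC, fell from 8.0, 7.6 and 8.6 to 1.8, 1.7 and 1.6 RPKM (log2 fold change -1.747), and Mecom, a transcription factor of arterial EC, from 6.3, 4.9 and 5.8 to 2.3, 3.0 and 2.0 RPKM (-0.96). The most abundant of the list, Nrp1, a co-receptor of VEGF and semaphorins, overlapped at 368.2 ± 82.1 and 354.4 ± 45.9 RPKM (-0.04, adjusted p = 0.896), and so did Stmn2 at 111.9 ± 15.7 and 120.7 ± 17.4 RPKM (0.11, adjusted p = 0.642). By adjusted p alone, without the fold threshold, 5 of the 18 were higher and 4 lower, against 9.26% and 16.2% of all genes. That added 4 genes to the called ones. These were the receptors Notch1 (20.6 ± 1.68 and 30.1 ± 3.82 RPKM) and Notch4 (4.37 ± 0.493 and 6.57 ± 0.252 RPKM), both higher, and Hey2 and Unc5b, both lower, and they are named here after their values were seen. The NOTCH ligand Dll4, also chosen so, measured 60.3 ± 10.8 and 66.7 ± 0.987 RPKM (adjusted p = 0.428).

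The other venous genes that passed the test all rose. Of 16, 15 were tested and 13 had higher values in young adult EC. Their median log2 fold change was 1.06, against -0.07 over all genes. A total of 8 were called, all higher, against 3.33% of all genes called higher. Of the 15, 10 did not overlap between the ages, the called 8 among them, against 43.4% of all genes. The same 8 were called in each fit that left out a library and under each of the 4 other scalings. Ackr1, listed under its older name Darc, was under 1 RPKM in all libraries and was not tested.

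The largest rises were those of Slc6a2, the noradrenaline transporter, from 4.6, 3.7 and 3.0 to 45.6, 35.6 and 26.6 RPKM (log2 fold change 2.93), and Prss23, a serine protease, from 7.3, 7.1 and 6.9 to 57.8, 40.1 and 38.5 RPKM (2.50). Adhesion and haemostasis genes followed, with Vcam1 at 3.7, 4.3 and 2.5 against 21.5, 18.9 and 14.5 RPKM (2.10), Vwf at 33.8, 29.4 and 28.4 against 157.1, 128.1 and 103.8 RPKM (2.03) and Selp at 0.467 ± 0.0577 against 3.03 ± 0.289 RPKM (1.46). Ptgs1, which encodes the cyclooxygenase COX1, rose by 1.71, Bst1 by 1.35 and Amigo2 by 1.06 on the log2 scale.

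Emcn, a glycoprotein of venous and capillary endothelium, had the highest level of the list and overlapped, at 232.1 ± 66.3 and 247.0 ± 14.7 RPKM (0.12, adjusted p = 0.677). Nr2f2 thus fell, and Ephb4 rose by 1.36-fold in mean RPKM, in libraries in which 8 of 15 other venous genes were called higher. Over all genes 3.33% were called higher. Emcn and Vwf are also on the endothelial list, and Flt4 on the lymphatic one.

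**Figure D5:**
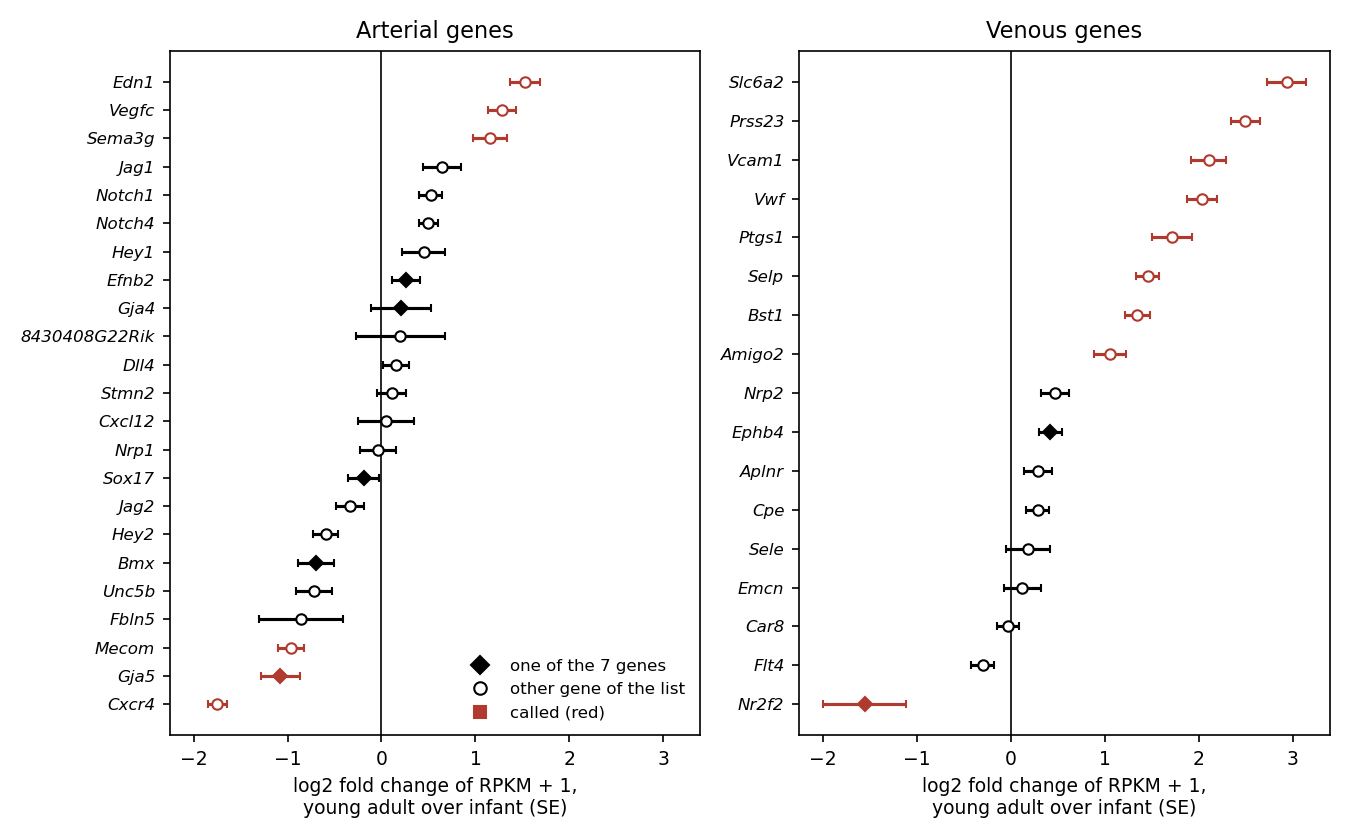
Log2 fold changes of RPKM + 1 (young adult over infant) with SE for arterial genes (left) and venous genes (right), with the 7 genes as filled diamonds, other genes as open circles and called genes in red. Arterial genes lie on both sides of 0, with Edn1 at 1.53 and Cxcr4 at -1.747, while 13 of 15 other venous genes lie above 0, up to 2.93 for Slc6a2.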

How the data were processed

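RNA-seq of sorted lung EC was analysed in 6 libraries, 3 infant and 3 young adult, grouped by their titles. According to the study's methods, cDNA was made with the SMARTer Ultra Low kit, which amplifies small amounts of RNA by PCR, read as paired ends on a HiSeq2000, aligned to mm10 with STAR and counted on RefSeq transcripts. The deposited values are the authors' RPKM, 1 column per library, rounded to 1 decimal. The program and the STAR version are not given in the sources used here. The study states an average coverage but no depth per library, and an abundant transcript lowers all others of its library.

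Each of 12623 genes was represented by its transcript row of highest mean. The 12458 genes that reached an RPKM of 1 in any library entered a limma fit (version 3.58.1, R 4.3.3) of log2(RPKM + 1) on age alone, moderated by eBayes with a trend on intensity, and p-values were adjusted over all of them by Benjamini-Hochberg. The study itself tested counts, which were not analysed here. Within-library log2 ratios were compared with exact two-sided permutation tests. Fits were tested on simulated data. Positions span whole genes in RefSeq's GRCm38.p6, the coordinates of mm10.

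The members and gene lists were chosen with earlier results of these data known. Named are the members, every called gene of 4 related lists with the 2 most abundant others, the 2 genes most correlated with each member and the 2 most abundant of each marker list. Alternatives were pseudocounts of 0.1 and 5, no filter or a filter on the mean, quantile, upper quartile, endothelial marker and globin-free scaling, a replicate block, array weights, robust eBayes, eBayes without the trend, a test against the fold threshold, adjusted p alone, the mean over transcript rows and leaving out each library.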

Additional observations from a re-analysis of the deposited data

How the results depend on the processing

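The causes of the following shifts were not tested, and the depth of each library, and so any counting error, is unknown. Of 12458 genes, 1424 were called, and 578 with a pseudocount of 5, 176 in a test against the fold threshold, 3176 by adjusted p alone and 842 to 1874 without 1 library (infant replicates 1, 2 and 3 left out gave 927, 1874 and 949, and young adult replicates 1 and 2 gave 842 and 867). Higher and lower calls were 415 and 1009, against 532 and 611 after quantile normalization, 310 and 1291 under endothelial marker scaling and 298 and 1385 without globin genes. Of the 7 members 2 were called, and 1 with a pseudocount of 5, quantile normalization or robust eBayes, 0 in the test against the fold threshold, 4 by adjusted p alone and 0 to 2 without 1 library (0 without young adult replicate 1). The 5 called other arterial genes became 3 with a pseudocount of 5, 1 in the test against the fold threshold, 9 by adjusted p alone and 5 to 8 without 1 library (8 without infant replicate 2). The 8 venous ones became 5 with a pseudocount of 5 and in the test against the fold threshold. The 1 called ephrin receptor became 3 with a pseudocount of 0.1, endothelial marker scaling, without globin genes or with array weights, 0 with a pseudocount of 5 and in the test against the fold threshold, 6 by adjusted p alone and 0 to 4 without 1 library (4 without infant replicate 2). The 2 called relatives became 1 with a pseudocount of 5, a filter on the mean, quantile normalization and the test against the fold threshold, and 1 to 3 without 1 library. Gja4 ranged from -0.15 to 0.43 without 1 library and turned from 0.21 to -0.15 without infant replicate 2 and to -0.01 without young adult replicate 2. The 3 ratios kept their sign under every alternative run.

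Replicate numbers were shared by both ages. Deviations of same-numbered libraries from their group means correlated at 0.0282, -0.110 and -0.0208, and those of differently numbered ones at -0.122 to 0.111. No pairing by number was visible in these values, and whether same-numbered libraries were handled together is unknown. A fit with the replicate block called 1371 genes, 2 members, 5 other arterial, 8 other venous, 1 ephrin receptor and 2 relatives.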
